A study of Mus musculus with 6 samples.

Results

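The genes described here encode the subunits of the proteasome, its activators and regulators, and the chaperones that assemble it. They were chosen by symbol, as genes with a probeset of their own whose symbol starts with Psma, Psmb, Psmc, Psmd, Psme, Psmf or Psmg, leaving out Psmb8 and Psmb9. This gave 48 of the 19938 genes with a symbol of their own on the array, and no measured value entered the choice. Of the 48, Psmc3ip encodes a meiotic recombination factor named for its binding to a subunit, and Psme3ip1 encodes a binding partner of the activator Psme3. Neither is a subunit, and both were kept because the symbol rule takes them in.

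RNA was measured on Affymetrix whole-transcript arrays in mouse embryonic stem (ES) cells that carry a fluorescent reporter, 2C::tomato. Cells were grown on gelatin in ES-KOSR medium and sorted by flow cytometry on the reporter into positive and negative cells, with 3 arrays of each, numbered 1 to 3. The titles mark all 6 samples as WT. The protocol names a vehicle arm and a 4OHT arm, the latter to delete Kdm1a, without saying which of them these samples received, and neither strain nor clone is stated in the sources used here. In published work with this reporter an endogenous retroviral promoter drives the fluorescent protein, and the positive state is passing and rare, so the sorted cells are defined by reporter output alone. The study asked which genes differ between cells that express the reporter and cells that do not.

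The proteasome is the large protease that degrades proteins tagged with ubiquitin. Its 20S core is a barrel of stacked rings: outer rings of alpha subunits that gate the entrance, and inner rings of beta subunits, of which Psmb5, Psmb6 and Psmb7 carry the active sites. The 19S cap has a base with a ring of ATPases that unfold substrates and a lid that removes ubiquitin. Other caps, made of Psme proteins, open the core without ubiquitin. In the earliest mouse embryos the proteasome clears proteins inherited from the egg, and in ES cells it serves the turnover of regulatory proteins.

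Proteasome genes differed little between reporter-positive and reporter-negative cells. Differences in level were small: the largest in either direction were Psma7, 1.24-fold lower in positive cells, and Psma2, 1.17-fold higher, both alpha subunits of the core. The median log2 difference, positive minus negative, was -0.011 over the 48 genes and -0.043 over all genes. Over genes regardless of sign, the median size of the difference was 0.059 for the 48 and 0.12 for all genes. These sets were not matched for level: 46 of the 48 were brighter than the median gene. With the dimmest 30% of genes left out, the signed medians were -0.00815 for 47 proteasome genes and -0.016 for all genes kept. On the same arrays, 8 marker genes of the reporter-positive state, a list that draws on earlier work with this reporter, had a median difference of 3.51. That list was set with earlier results of these data known, and it holds the gene with the largest difference on the array. Its large median is therefore a description and no independent yardstick. No gene on the array passed the adjusted threshold, these markers included: Gm5662, the farthest at 5.34, had a limma adjusted p of 0.910. The adjusted test therefore does not set the proteasome genes apart from the markers, and the sizes and intervals of the differences are what can be compared.

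With limma, 0 of the 48 genes had an adjusted p under 0.05, against 0% of all genes, and the smallest adjusted p among the 48 was 0.910. At an unadjusted p under 0.05 there were 0 members higher and 0 lower, against 1.95% and 2.46% of all genes. With array number added as a blocking term, 0 members passed (smallest adjusted p 0.413). At an unadjusted p under 0.05 that fit gave 0 members higher and 1 lower, Psmd7, against 5.4% and 6.61% of all genes.

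Direction followed that of the array as a whole. Of the 48 genes, 29 were lower in positive cells and 19 higher, and of all genes 60.2% were lower and 39.8% higher. Only Psma2 had its lowest positive array above its highest negative array, against 4.08% of all genes. Only Psma7 had its highest positive array below its lowest negative array, against 7.15% of all genes. In same-numbered pairs of arrays, 5 members were higher in all 3 pairs and 10 were lower in all 3, against 15.1% and 23.7% of all genes. These shares were near or under those of all genes.

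A gene that does not pass the test may still differ, and the intervals give how far. The 95% interval of the difference lay within 2-fold in either direction for all 48 genes, and within 1.5-fold for 41. The same held for 93.1% and 67.6% of all genes, a set with more dim genes that was not matched for level. The 7 genes whose interval reached past 1.5-fold were Psma5, Psma7, Psma8, Psmb10, Psmd7, Psme2 and Psmg2. Standard errors (SE) of the 48 differences ranged from 0.096 to 0.28 on the log2 scale. Intervals and SEs in this text come from the fit without array number as a block, so they leave out the pairing. With the block, the SE went from 0.18 to 0.091 for Psmd7 and from 0.28 to 0.12 for Psmg2. It stayed at 0.14 for Psma7. Intervals of the blocked fit were not computed. RMA, the method that made these values, normalizes quantiles between arrays, so a change shared by most genes of the cell would not show here. In sorted bulk cells, fewer cells of a type and less RNA per cell cannot be told apart.

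**Figure D1:**
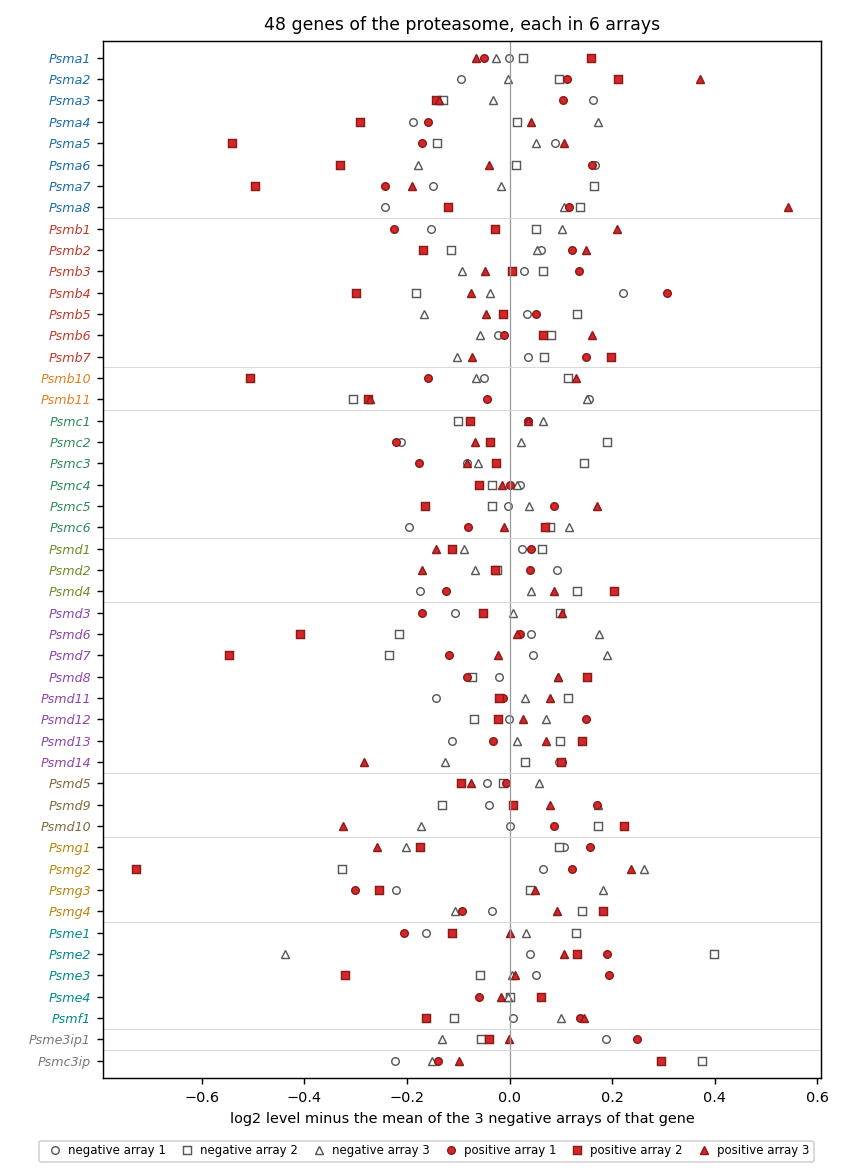
Log2 level of each of the 48 genes (rows, grouped by role) in the 6 arrays, minus the mean of that gene's 3 negative arrays (open, negative arrays, filled, positive arrays, with circle, square and triangle for numbers 1, 2 and 3). Filled and open symbols are mixed in most rows, with Psma2 and Psma7 as the rows without overlap.

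**Figure D2:**
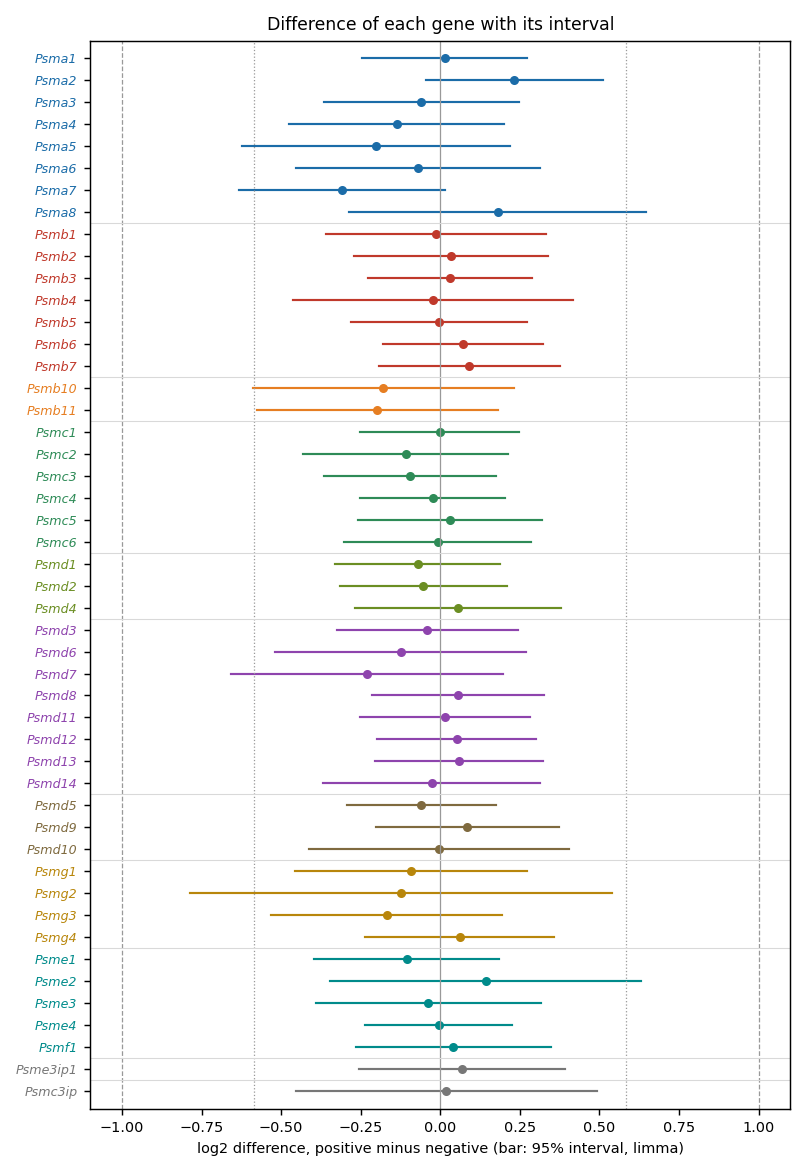
Log2 difference (positive minus negative) of each gene with its 95% interval from limma without array number as a block, coloured by role. Dotted lines mark 1.5-fold and dashed lines 2-fold in either direction, and all 48 intervals lie inside the dashed lines.

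The alpha ring held both of the genes without overlap. Psma7, the subunit at position alpha4, stood at log2 levels of 10.69, 11.00 and 10.82 in negative arrays 1, 2 and 3 and at 10.59, 10.34 and 10.65 in the positive arrays. All 3 positive values were lower than the lowest negative value, by a narrow margin except in positive array 2. The log2 difference of Psma7 was -0.31 (SE 0.14, 95% interval -0.63 to 0.014, limma adjusted p = 0.910). Its pairs differed by -0.093, -0.66 and -0.17, so the size came mostly from pair 2, and with both arrays of number 2 left out it was -0.13.

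Psma2, at position alpha2, stood at 10.22, 10.41 and 10.31 in the negative arrays and at 10.43, 10.52 and 10.69 in the positive arrays. The highest negative and the lowest positive array lay close to each other. With each array centred on its median, the groups overlapped. The log2 difference of Psma2 was 0.23 (SE 0.12, limma adjusted p = 0.910), and its pairs differed by 0.21, 0.11 and 0.37.

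Psma5, at position alpha5, stood at 10.75, 10.52 and 10.72 in the negative and at 10.49, 10.12 and 10.77 in the positive arrays. Positive array 2 was the lowest and positive array 3 the highest of the 6. Positive array 1 also lay below every negative array, so the groups overlapped through positive array 3 alone. The log2 difference was -0.20 (SE 0.18), and -0.032 without positive array 2. A second Psma5 probeset gave -0.17. The other constitutive alpha genes, Psma1, Psma3, Psma4 and Psma6, differed by between -0.14 and 0.014.

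Psma8 encodes a form of alpha4 that takes the place of Psma7 in the germ cells of the testis. It stood at 7.51, 7.89 and 7.86 in the negative arrays and at 7.87, 7.63 and 8.29 in the positive arrays. Positive array 3 was the highest of the 6 and positive array 2 lay among the negative arrays. The difference was 0.18 (SE 0.20, limma adjusted p = 0.928), with pairs at 0.36, -0.26 and 0.44, and it was -0.0020 without positive array 3. Psma7 and Psma8 thus had differences of opposite sign, neither past the test. Both were at their lowest positive value in array 2.

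The beta ring varied over a narrow range. Its 7 constitutive genes, Psmb1 to Psmb7, differed by between -0.022 and 0.092, 4 of them above 0. Psmb5, the chymotrypsin-like active site and the main target of proteasome inhibitor drugs, stood at 13.48, 13.57 and 13.27 in the negative arrays and at 13.49, 13.43 and 13.39 in the positive arrays. Positive values lay inside the negative range, and the difference was -0.0032 (SE 0.12, 95% interval -0.28 to 0.27).

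Psmb6, the caspase-like active site, stood at 11.89, 12.00 and 11.86 in the negative and at 11.90, 11.98 and 12.08 in the positive arrays. The groups overlapped, with positive array 3 highest, and the difference was 0.071 (SE 0.11). Psmb7, the trypsin-like active site, stood at 11.59, 11.62 and 11.45 in the negative and at 11.70, 11.75 and 11.48 in the positive arrays. Each positive array of Psmb7 was above its same-numbered partner, by 0.11, 0.13 and 0.030, while the groups overlapped, and the difference was 0.092 (SE 0.12, limma adjusted p = 0.941). It was 0.038 without positive array 2 and 0.17 without positive array 3.

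Beta subunits of immune and thymic proteasomes replace these active sites in other tissues. Psmb10, the immune form of the trypsin-like subunit, is induced by interferon gamma. It stood at 8.58, 8.74 and 8.56 in the negative and at 8.47, 8.12 and 8.75 in the positive arrays. Positive arrays 2 and 3 were the lowest and the highest of the 6. The difference of -0.18 (SE 0.17, limma adjusted p = 0.917) was -0.015 without positive array 2 and 0.042 with both arrays of number 2 left out.

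Psmb11, the beta5 subunit of the thymic cortex, stood at 5.82, 5.36 and 5.82 in the negative and at 5.62, 5.39 and 5.39 in the positive arrays. These values lie at the dim end of the array's scale, where RMA can understate a difference. Negative array 2 lay with the positive arrays. The difference was -0.20 (SE 0.16, limma adjusted p = 0.916), and -0.35 without negative array 2. The immune genes Psmb9 and Psmb8, which the symbol rule leaves out, differed by -0.23 (SE 0.13) and -0.21 (SE 0.14). Their groups overlapped, narrowly for Psmb9, and adjusted p was 0.910 each in limma. Pairs differed by -0.23, -0.0023 and -0.46 for Psmb9 and by -0.56, 0.082 and -0.16 for Psmb8. Psmb8 was also dim, with means of 5.52 in negative and 5.31 in positive arrays. The 4 alternative beta genes therefore had differences below 0, as did 60.2% of all genes. The 3 active-site genes they replace lay between -0.0032 and 0.092. Those 3 were brighter than all 4 alternative genes, so the sets were not matched for level. The difference between these sets was not tested.

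**Figure D3:**
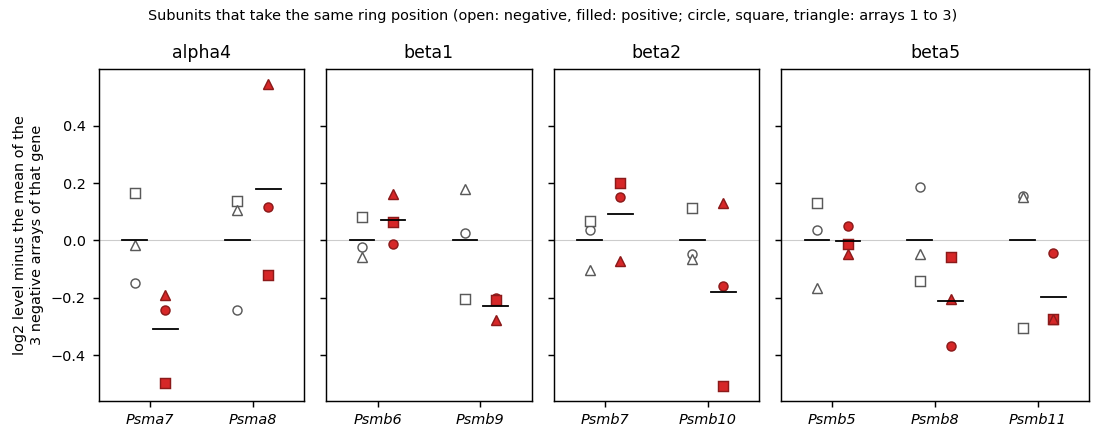
Genes whose products take the same ring position (panels), as log2 level minus the mean of that gene's 3 negative arrays (open, negative arrays, filled, positive arrays, with shape for the array number and bars for group means). Psma7 has all filled symbols below the open ones, and the groups overlap for the other genes shown.

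In the cap, the 6 ATPases of the base, Psmc1 to Psmc6, form the ring that unfolds substrates and threads them into the core. They differed by between -0.11 for Psmc2 and 0.031 for Psmc5, 5 of them below 0, and none passed the test. Psmc4 had the narrowest spread, with all 6 arrays between 11.75 and 11.83. Its pairs differed by -0.018, -0.025 and -0.029, so it was lower in each pair by an amount under its SE of 0.096. Psmc2 and Psmc3 were also lower in all 3 pairs. Of the scaffold and ubiquitin-binding genes of the base, Psmd1 and Psmd2 differed by -0.071 and -0.053, and Psmd4, a ubiquitin receptor, by 0.055.

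The lid genes divided evenly, with 4 above 0 and 4 below. Psmd7, which pairs with the deubiquitinase Psmd14 at the heart of the lid, stood at 11.46, 11.17 and 11.60 in the negative arrays. In the positive arrays it stood at 11.29, 10.86 and 11.39. It was lowest in array 2 of both groups, and each positive array was below its partner, by -0.16, -0.31 and -0.21. The difference was -0.23 (SE 0.18, limma adjusted p = 0.915). In the blocked fit, Psmd7 had the smallest p of the 48 (unadjusted 0.0467, adjusted 0.413), and without positive array 2 the difference was -0.070. Psmd14 itself, which cuts ubiquitin chains off substrates, differed by -0.028 (SE 0.14). The other lid genes, Psmd3, Psmd6, Psmd8, Psmd11, Psmd12 and Psmd13, differed by between -0.12 and 0.059.

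Chaperones that build the base, Psmd5, Psmd9 and Psmd10, differed by between -0.059 and 0.085. Psmd9 stood at 8.19, 8.10 and 8.40 in the negative and at 8.40, 8.24 and 8.31 in the positive arrays. Its groups overlapped, and the difference was 0.085 (SE 0.12), or -0.015 with array weights. Among the chaperones of the core, 3 of 4 were below 0.

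Psmg3, which works with Psmg4 to lay down the alpha ring, stood at 6.87, 7.13 and 7.27 in the negative and at 6.79, 6.84 and 7.14 in the positive arrays. Each positive array of Psmg3 was below its partner, by -0.079, -0.29 and -0.13, while the groups overlapped. The difference was -0.17 (SE 0.15, limma adjusted p = 0.917), against 0.061 (SE 0.13) for Psmg4. Leaving out negative array 1 moved Psmg3 to -0.28, leaving out negative array 3 to -0.078, and array weights to -0.30. The other pair of core chaperones, Psmg1 and Psmg2, differed by -0.092 and -0.12. Psmg2 varied most of the 48, with an SE of 0.28, and was lowest in array 2 of both groups, at 10.46 in negative and 10.05 in positive cells.

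Activators that open the core without ubiquitin gave no common direction. Psme1 and Psme2 form the interferon-induced cap PA28alpha-beta and differed by -0.11 and 0.14. Psme2 stood at 9.77, 10.13 and 9.29 in the negative and at 9.92, 9.86 and 9.84 in the positive arrays. The positive arrays lay close together inside a wide negative range. The difference of 0.14 (SE 0.21, limma adjusted p = 0.951) was -0.077 without negative array 3, the lowest of the 6, 0.34 without negative array 2 and 0.51 with array weights (limma adjusted p = 0.0999). A probeset annotated to both Psme2 and Psme2b, which was not used for the 48, had its lowest value in the same array and differed by 0.11.

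Psme3, the nuclear activator PA28gamma, and Psme4, the activator PA200 known for its role with acetylated histones in spermatids, differed by -0.038 (SE 0.15) and -0.0051 (SE 0.098). Psmf1, which encodes the regulator PI31, differed by 0.041 (SE 0.13). The partner gene Psme3ip1 differed by 0.069 (SE 0.14), and Psmc3ip, the meiotic factor, by 0.019 (SE 0.20).

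Pairs of same-numbered arrays differed in how the genes lay. In pair 1, 20 of the 48 were lower in positive cells, against 54.3% of all genes. In pair 2, 33 of 48 were lower, against 59.1%, and in pair 3, 25 of 48, against 51.4%. The median of the 48 was 0.016, -0.080 and -0.018 in pairs 1, 2 and 3, beside -0.023, -0.051 and -0.0065 for all genes. Pair 2 also held the largest single differences below 0, Psma7 at -0.66 and Psmb10 at -0.62, and the quartiles of its 48 differences were -0.25 and 0.033.

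The 8 marker genes, chosen with earlier results of these data known, had median differences of 2.97, 5.92 and 1.38 in pairs 1, 2 and 3, largest in pair 2. Over 3 pairs no relation between these values could be tested. Positive array 2 was the lowest of the 6 arrays for 16 of the 48 genes. It was also the lowest for 32.1% of all genes, so this share of the 48, 33.3%, was near the background.

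**Figure D4:**
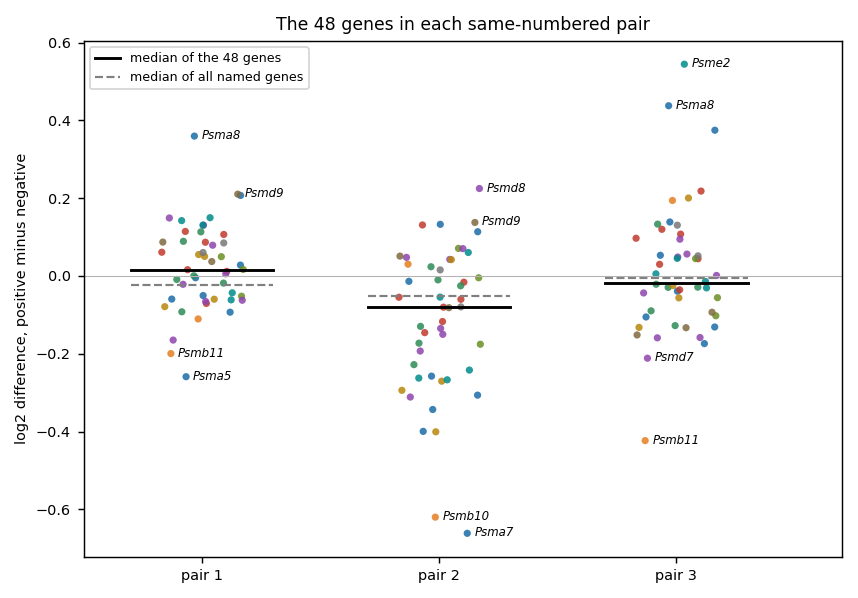
Log2 difference (positive minus negative) of each of the 48 genes in the 3 same-numbered pairs of arrays, coloured by role as in the plot of differences with intervals. Solid bars are medians of the 48 genes (0.016, -0.080 and -0.018) and dashed bars medians of all genes, and names are given for genes at both ends.

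Genes measured by several probesets gave like values. Psma3, Psma5, Psmb3, Psmc1 and Psmd2 had more than 1 probeset, and the differences of their probesets kept their sign except for Psmc1, at -0.0017 and 0.044. A probeset can also take signal from near-identical copies such as pseudogenes, so which copy was measured is uncertain for these genes.

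Promoter sequences were examined because proteasome genes are known to be raised together by the transcription factor NFE2L1, which binds antioxidant response elements when the proteasome is impaired. RefSeq sequences (GRCm38.p6) were at hand for 40 of the 48 genes, and the 250 bases before each start were searched on both strands. The core letters of the element, TGACNNNGC, occurred in 5 of the 40 genes (12.5%), against 11.5% of all 27025 genes with a promoter entry. These were Psmb5, Psmb6, Psmc6, Psmd9 and Psmd12, whose differences lay between -0.0081 and 0.085. They are shown so that the element can be seen in its setting, on the strand of the gene, with the matched letters in capitals. A match in capitals that reads GC first is on the opposite strand.
Psmb5, chr14:54618018-54618058, minus strand: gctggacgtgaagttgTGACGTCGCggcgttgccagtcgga
Psmb6, chr11:70525332-70525356, plus strand: ggcggactaaagagagTGACGGAGC
Psmc6, chr14:45329581-45329621, plus strand: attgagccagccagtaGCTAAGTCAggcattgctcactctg
Psmd9, chr5:123228143-123228183, plus strand: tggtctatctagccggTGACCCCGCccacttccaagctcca
Psmd12, chr11:107479278-107479305, plus strand: tctGCTGTGTCAcatttgcccccctcag

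The match of Psmb6 ended at the base before the start, that of Psmb5 began 47 bases before it, and those of Psmc6 and Psmd12 began 227 and 247 bases before it. Another 7 motifs were searched in the same windows. CCAAT, the letters bound by NF-Y, occurred in 37.5% of the 40 genes, against 37.5% of all genes. TGACG, the core of the cyclic AMP response element, occurred in 37.5%, against 19.8%. GGGCGG, bound by Sp1, occurred in 55.0% against 35.4%, and GGAAG, an ETS core, in 87.5% against 66.9%. TGACG lies inside TGACNNNGC where the first free letter is G, as in Psmb5 and Psmb6. Base composition was not matched between these sets, so the shares are descriptions. The motif TGACTCAGC is TGACNNNGC with TCA as its free letters. It and the YY1 motif occurred in 0 of the 40 genes and in 0.426% and 0.248% of all genes. The palindromic motif of nuclear respiratory factor 1 occurred in 1 of the 40, Psma2, and in 0.877% of all genes.

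The promoters of Psma2 and Psma7 are printed because these genes alone had no overlap between the groups. Each line holds the 250 bases before the start, on the strand of the gene. Capitals mark the Sp1, NF-Y, cyclic AMP and nuclear respiratory factor letters on either strand, and CCGCCC is the Sp1 motif read from the other strand.
Psma2, chr13:14612992-14613241, plus strand: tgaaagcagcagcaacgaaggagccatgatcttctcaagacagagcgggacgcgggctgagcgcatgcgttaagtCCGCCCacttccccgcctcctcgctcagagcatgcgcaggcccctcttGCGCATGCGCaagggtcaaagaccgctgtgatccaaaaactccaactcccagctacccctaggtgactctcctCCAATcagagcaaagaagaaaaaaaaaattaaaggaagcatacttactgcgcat
Psma7, chr2:180042465-180042714, minus strand: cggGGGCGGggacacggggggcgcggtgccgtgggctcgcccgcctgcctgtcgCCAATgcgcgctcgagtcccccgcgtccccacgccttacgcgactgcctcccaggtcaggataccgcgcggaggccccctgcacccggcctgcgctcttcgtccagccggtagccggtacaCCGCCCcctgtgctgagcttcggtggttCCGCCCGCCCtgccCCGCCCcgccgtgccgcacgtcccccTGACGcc

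The Psma7 promoter held 5 GGGCGG matches and that of Psma2 held 1, and both held a single CCAAT match.

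Other genes of the pathway were read from lists set for this work. Among proteasome partners without a Psm symbol, 12 of 18 listed symbols were measured, 6 higher and 6 lower, with a median difference of -0.026, and 0 passed the test. Pomp, the chaperone that completes the core, was the lowest at -0.17 (SE 0.18), with pairs at 0.14, -0.54 and -0.13. Zfand2a, an arsenite-inducible protein that binds the proteasome under stress, was the highest. It stood at 12.16, 11.50 and 11.67 in the negative and at 12.66, 13.15 and 11.94 in the positive arrays, each positive array above its partner while the groups overlapped. The difference was 0.81 (SE 0.32), 1.75-fold, at an unadjusted p of 0.0391 and a limma adjusted p of 0.910, and its largest pair difference was 1.65 in pair 2.

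The NFE2L1 route covers the factor, the enzymes that release and cut it, its partners and well-known target genes of antioxidant elements. Of 18 symbols 16 were measured, 9 higher and 7 lower, with a median of 0.034, and 0 passed. Nfe2l1 itself differed by 0.096 (SE 0.18). Nqo1, a quinone reductase and classic target, stood at 8.95, 9.76 and 8.93 in the negative and at 9.46, 10.31 and 9.32 in the positive arrays. It was highest in array 2 of both groups, and each positive array was above its partner, by 0.52, 0.56 and 0.39. The difference of 0.49 (SE 0.33) had a limma adjusted p of 0.910. In the blocked limma fit, Nqo1 had an unadjusted p of 0.0020 and an adjusted p of 0.396. At an unadjusted p under 0.05 that fit had 5.4% of all genes higher.

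The remaining lists also had 0 genes past the test. Immune proteasome and peptide-loading genes had 6 of 11 measured members higher and a median of 0.042, from Nlrc5 at -0.28 to Tap1 at 0.22. Ubiquitin shuttles and cofactors of the segregase Vcp had 5 of 12 higher and a median of -0.013. Another list held ubiquitin genes and activating enzymes of ubiquitin and ubiquitin-like proteins. Of these, Uba6 and Uba3 had a probeset of their own and differed by 0.11 and 0.016.

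Complexes related to the lid, or of like size and housekeeping role, lay in the same range. The COP9 signalosome, whose subunits are related to those of the lid, had 6 of 9 members higher and a median of 0.063. The initiation factor eIF3, the third complex of that kinship, had 7 of 11 higher and a median of 0.072. The chaperonin CCT, a folding machine, had 2 of 8 higher and a median of -0.022. The median of the 48 proteasome genes, -0.011, lay between these values, and differences between lists were not tested.

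**Figure D5:**
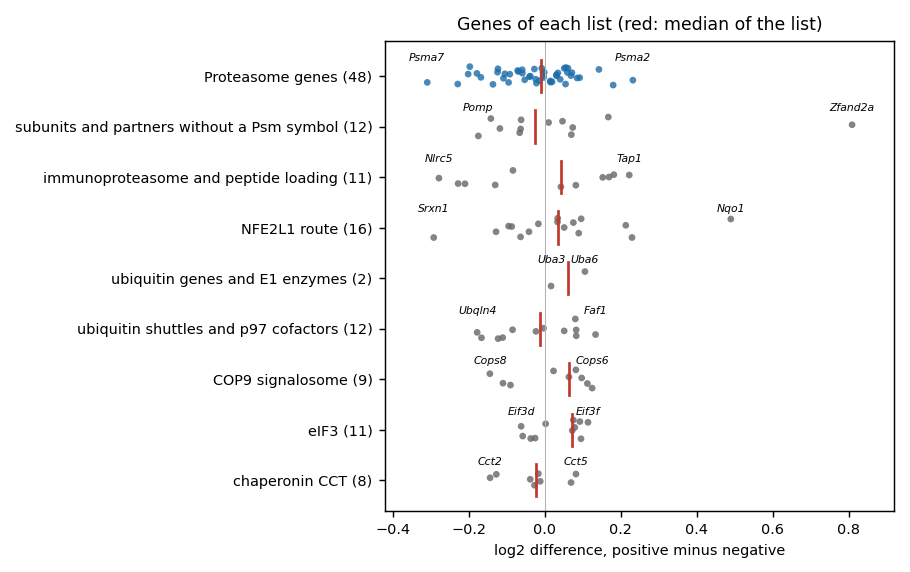
Log2 difference (positive minus negative) of each gene in the 48 proteasome genes and in 8 related lists, with the number of measured genes in brackets. Red bars are list medians, the lowest and highest gene of each list is named, and Zfand2a at 0.81 and Nqo1 at 0.49 lie farthest out.

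Marker lists of other cell types also had medians below 0. The 8 ES cell markers had mean log2 levels over the 6 arrays between 10.4 and 13.3, so the defining markers of the labelled cell type were present, and their median difference was -0.13. Of 10 fibroblast markers, 7 were lower in positive cells, with a median of -0.31, beside 60.2% of all genes. The farthest below 0 were Acta2 at -1.16 (SE 1.06) and Tagln at -1.13 (SE 1.06), each lower in all 3 pairs with overlapping groups. Col1a1 at -0.41 and Vim at -0.29 were lower without overlap, as were 7.15% of all genes. In all, 6 of the 10 were lower in all 3 pairs, against 23.7% of all genes. Thy1 alone of the 10 was higher in all 3 pairs and higher without overlap, at 0.55, against 15.1% and 4.08% of all genes. Of 7 endoderm markers 6 were lower, with a median of -0.29, and of 8 trophectoderm markers 5, with a median of -0.12. None of these markers passed the adjusted test. Mean log2 levels of the fibroblast list ranged from 8.0 to 8.75 in negative and from 7.55 to 8.65 in positive arrays, and their part in the values of Psma7 and the other proteasome genes was not tested.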

How the data were processed

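RNA (100 ng per sample) was measured on 6 arrays. The deposited values are log2 levels that the authors made by RMA in Affymetrix Expression Console, per the submitters' processing notes. Their versions and the genome build: not given in the sources used here. No column was left unused. Of 35556 probesets, 21789 had 1 gene symbol, 1621 several and 12146 none here. Each of 19938 genes kept its probeset with the highest mean. All 48 proteasome genes matched RefSeq by gene ID.

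The test was limma's moderated linear model (version 3.58.1, R version 4.3.3), two-sided, adjusted by Benjamini-Hochberg over all genes at 0.05. It was also run on simulated data. These were drawn separately for each array, unlike the real arrays, where same-numbered ones deviate together, so no conclusion is drawn from that run. Whether the replicates are separate cultures is unstated, so the p-values reflect the spread of these samples alone, which may be technical. Array medians ranged from 6.95 to 7.04. The number of arrays limits the precision.

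Same-numbered arrays deviated together from their group means (r = 0.55, 0.55 and 0.46 across genes, which are not independent replicates), so the numbers were taken as pairs. What a number marks is not in the labels. Full values were given for the active-site and tissue-restricted beta genes, Psma8, the 5 largest differences each way, the 5 smallest p with the block and the 3 dimmest genes. Genes and lists were chosen with earlier results of these data known.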

Additional observations from a re-analysis of the deposited data

How the results depend on the processing

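Under 15 alternatives, 0 of the 48 genes, and 0 of all genes, passed an adjusted p of 0.05 in any. With the replicate number as a block, 1 gene was lower at an unadjusted p under 0.05 (main count 0), against 6.61% of all genes. The block left every group difference as it was. Centring arrays on their median left 0 genes higher without overlap (main 1) and 2 lower (main 1), against 3.64% and 10.1% of all genes. A second quantile normalization gave 1 gene lower at an unadjusted p, against 4.33% of all genes. It gave 2 lower without overlap, 4.17% of the 48, against 11.1% of all genes. Array weights gave 2 higher and 4 lower at an unadjusted p, against 9.52% and 14.8% of all genes. They turned the sign of Psmb5 (0.14) and Psmd9 (-0.015) and moved Psme2 from 0.14 to 0.51. The causes were not tested.

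Leaving out 1 array or 1 pair, counts at an unadjusted p lower ranged from 0 to 1, without overlap from 2 to 8 higher and 1 to 7 lower, and in all remaining pairs from 7 to 16 higher and 13 to 17 lower, with fewer arrays left to overlap. Among all genes under the same settings, from 6.03% to 19.2% were higher and 9.95% to 28.2% lower without overlap. In all remaining pairs, 21.0% to 31.4% of all genes were higher and 32.2% to 37.1% lower. At an unadjusted p, 0.311% to 9.46% of all genes were lower. The highest counts of the 48 without overlap, 16.7% higher and 14.6% lower, came without replicate 2, where all genes had 19.2% and 28.2%, and 14.6% were also lower without replicate 1, beside 15.1%. The 16 higher in all remaining pairs, 33.3%, stood beside 31.4%, and the 17 lower, 35.4%, beside 32.2%. The median of the 48 ranged from -0.035 to 0.015. Over the same settings the difference ranged from -0.087 to 0.068 for Psmb5, -0.0021 to 0.11 for Psmb6, -0.37 to 0.042 for Psmb10, -0.0020 to 0.40 for Psma8 and -0.077 to 0.35 for Psme2. With 1 array left out it ranged from 0.019 to 0.17 for Psmd9, -0.35 to -0.12 for Psmb11, -0.36 to -0.032 for Psma5 and -0.35 to -0.070 for Psmd7. Of the 13 genes given in full, 7 kept their sign throughout. With 3 arrays a group, the adjusted test called nothing, even at a difference of 5.34 (Gm5662), and dim genes such as Psmb11 are limited by signal over background.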
